A study of Mus musculus with 8 samples.

Results

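The insulin-like growth factor (IGF) family was examined in mammary tumours by every probe annotated to the symbol of 1 of its members alone. The 10 members were the ligand genes Igf1 and Igf2, the receptor genes Igf1r and Igf2r, and the binding protein genes Igfbp2, Igfbp3, Igfbp4, Igfbp5, Igfbp6 and Igfbp7. They had 28 of the 45037 probes tested, and all 10 were among the 18193 genes with a probe of their own. A further probe that carries the symbol of Igf2r together with another symbol was left out. The members were chosen by name as a gene family, but with earlier results of these data known.

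IGF-1 and IGF-2 are small secreted hormones related to insulin. Both act through the receptor tyrosine kinase encoded by Igf1r, which drives growth and survival through the PI3 kinase and MAP kinase pathways, whereas Igf2r, the cation-independent mannose 6-phosphate receptor, takes up IGF-2 for degradation in lysosomes. The secreted binding proteins hold the ligands in the circulation and in tissue, and can restrain or prolong their action. In the mouse mammary gland, IGF-1 made in the stroma supports growth of the ducts, and Igfbp5 is known for its rise during involution after weaning.

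The arrays held 4 samples from females treated with SKI-606 and 4 from females treated with vehicle, all of the genotype MMTV-PyMT; their strain was FVB/N-Tg(MMTV-PyVT)634Mul/J. The tissue is labelled mammary, and the study's title and protocols name mammary tumours. In this line the MMTV promoter drives the polyoma virus middle T antigen mainly in mammary epithelium, so that every tumour, vehicle included, carries the transgene. SKI-606, also named bosutinib, blocks kinases of the Src and Abl families and was given by gavage at 100 mg/kg. The sources used here give neither ages nor the length of treatment. RNA was taken from tissue and not from sorted cells, 1 Affymetrix mouse array a sample, and in such bulk RNA fewer cells of a type and less RNA per cell cannot be told apart.

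Signals are whole-number values recovered from the deposited ratios and quantile normalized between the 8 arrays. A log2 fold change is SKI-606 minus vehicle on the scale of log2(signal + 16), given ± SE with 4 samples a group, which understates changes of dim probes. The test throughout is limma with Benjamini-Hochberg adjustment over all probes, and a call needs an adjusted p under 0.05. Array medians before normalization were 15, 15, 16 and 15 in SKI-606 samples 1 to 4 and 15, 17, 23 and 18 in vehicle samples 1 to 4. Of the vehicle samples, only sample 1 lay within the SKI-606 range. Control probes at both ends of Actb gave a 3'/5' signal ratio of 1.66 to 3.35 in SKI-606 and 1.77 to 3.83 in vehicle samples. These ratios showed no split between the groups. Over all probes, SKI-606 samples 1 and 4 stood apart from the other 6 on the main axis of variation, with 34% of the variance (81.1 and 72.4, against -38.5 to -14.9), and vehicle sample 3 on the next. All 8 luminal epithelial markers were measured, with summed signals of 26532 to 32171 in SKI-606 and 28888 to 33935 in vehicle tumours.

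As a family, the IGF genes had higher signals in the SKI-606 tumours, but none passed the test. The brightest probe was higher in 9 of 10 members, with a median log2 fold change of 0.78, beside -0.019 over all 18193 genes. Of the 28 probes 26 lay above 0, with a median of 0.76, beside -0.021 over all probes. The widest differences lay in the binding proteins, up to 1.74 for a probe of Igfbp4, which restrains IGF action. Igf2r was the 1 member whose brightest probe was lower.

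In limma 0 of 28 member probes passed (adjusted p of 0.517 to 0.936), as did 0 of all 45037 probes (0.0% called). At an unadjusted p under 0.05 there were 14 of 28 member probes on the higher side, where 4.59% of all probes were, and 0 on the lower side, where 3.79% were. All 6 probes of Igfbp4 were among the 14, and the others came from Igf1, Igf2, Igf1r, Igfbp5 and Igfbp7. The 14 are thus fewer genes than probes and not separate results. By the brightest probe the higher count was 4 of 10 members (Igf1, Igf2, Igfbp4 and Igfbp7), beside 6.07% of all genes. In 6 of the 28 probes every SKI-606 value lay above every vehicle value, beside 1.83% of all probes, and in 0 every one lay below, beside 1.86%. These 6 belonged to Igfbp4 (4 probes), Igfbp5 and Igfbp7, so that they are 3 genes and not 6 separate results. In the probe of Igfbp7 the groups overlapped before quantile normalization. By the brightest probe alone, 2 of 10 members had every SKI-606 value above every vehicle value, beside 2.39% of all genes, and 0 had every one below, beside 2.03%. The 14 probes became 9 without vehicle sample 1 or 4, 7 without vehicle sample 2 or 3, and 8 or 6 when SKI-606 sample 1 or 4 was left out.

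**Figure D1:**
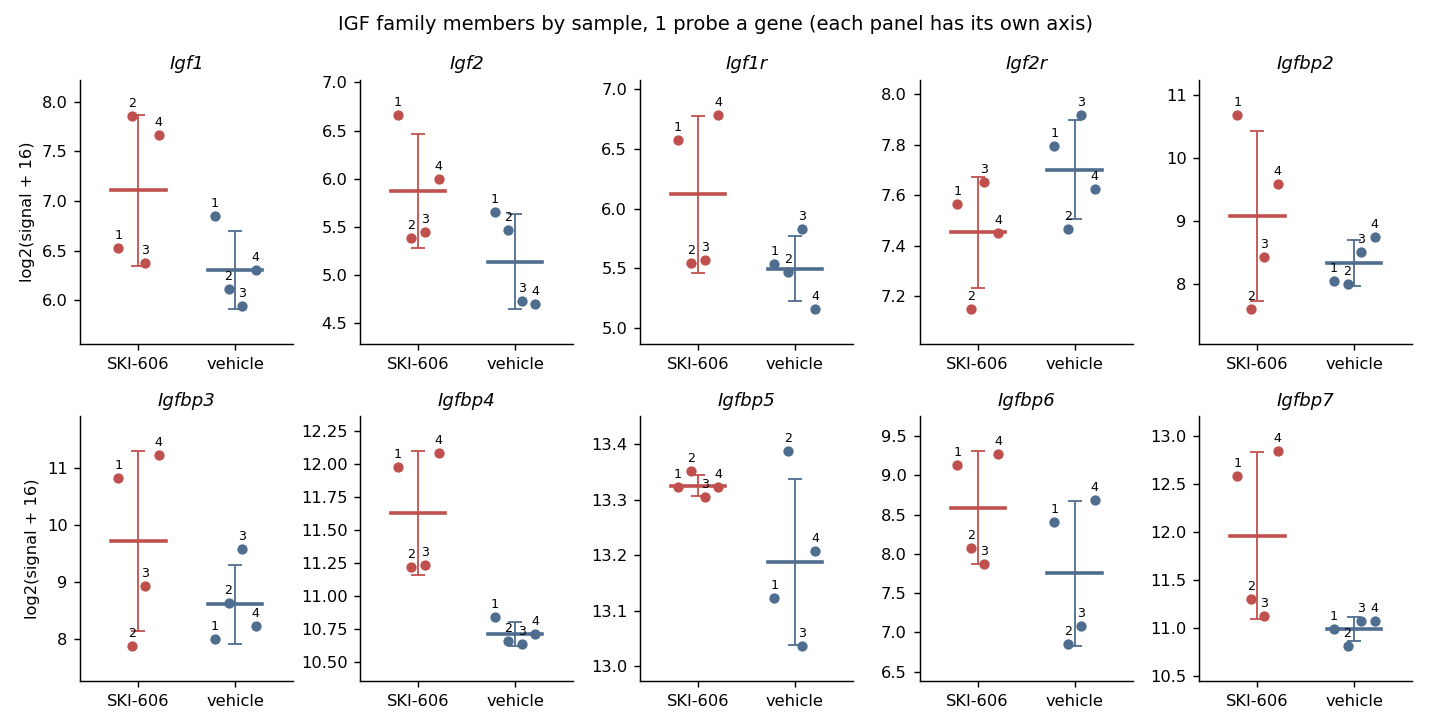
Each panel plots log2(signal + 16) of the brightest probe of 1 member in the 4 SKI-606 samples (left) and the 4 vehicle samples (right), numbered by replicate, with the mean (bar) and SD. SKI-606 samples 1 and 4 are the 2 highest of the 8 in 7 of 10 members, and the groups do not overlap in Igfbp4 and Igfbp7.

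Igf1 (chr10:87858265-87937047, plus strand, GRCm38.p6), the main ligand of the IGF-1 receptor, had 4 probes, all with higher means in SKI-606 tumours. The brightest, 1434413_at, gave signals of 76.4, 215, 67.3 and 187 in SKI-606 samples 1 to 4, against 99.0, 53.5, 45.4 and 63.3 in vehicle samples 1 to 4. SKI-606 samples 2 and 4 stood above all others, while SKI-606 samples 1 and 3 lay within the vehicle range. Its mean was 137 ± 75.8 in SKI-606 and 65.3 ± 23.6 in vehicle tumours (SD, n = 4 each), a log2 fold change of 0.80 ± 0.36 (95% CI 0.0017 to 1.61), with an adjusted p of 0.596 in limma. A second probe, 1419519_at, gave 93.8, 59.6, 33.0 and 91.4 in SKI-606 and 28.6, 33.6, 40.8 and 24.9 in vehicle tumours, a log2 fold change of 0.77 ± 0.26. There SKI-606 sample 1 was the highest, so the probes of Igf1 ranked that sample differently. The other 2 probes, 1452014_a_at and 1437401_at, stood at 0.74 ± 0.31 and 0.44 ± 0.34, and in the last of these SKI-606 sample 3 had the lowest signal of the 8. Leaving out SKI-606 samples 1 and 4 put the brightest probe at 0.82 and the other 3 at 0.34, 0.29 and -0.10.

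Igf2 (chr7:142650768-142666816, minus strand), an imprinted ligand gene most active before birth, was dim. Its brighter probe gave 85.5, 25.9, 27.5 and 47.9 in SKI-606 samples 1 to 4, against 34.3, 28.3, 10.6 and 10 in vehicle samples. SKI-606 sample 1 was the highest, and SKI-606 samples 2 and 3 lay below vehicle samples 1 and 2. The mean was 46.7 ± 27.7 in SKI-606 and 20.8 ± 12.3 in vehicle tumours (SD, n = 4 each), a log2 fold change of 0.73 ± 0.33 with an adjusted p of 0.596 in limma, which went to 0.27 without SKI-606 samples 1 and 4. The other probe, 1415931_at, read at most 10.1 in any sample and stood at 0.067 ± 0.17, with its sign turned on the log2 of the deposited ratios.

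Of the receptors, Igf1r (chr7:67952257-68233668, plus strand) was dim on all 5 of its probes. The brightest gave 79.4, 30.8, 31.5 and 94.3 in SKI-606 samples 1 to 4, against 30.4, 28.3, 40.8 and 19.8 in vehicle samples. SKI-606 samples 1 and 4 read about alike and above the rest, and SKI-606 samples 2 and 3 lay among the vehicle samples. The log2 fold change of 0.62 ± 0.30 had an adjusted p of 0.62 in limma, and was 0.058 without SKI-606 samples 1 and 4. The other 4 probes had mean signals between 4.63 and 17.7 in vehicle tumours and log2 fold changes from -0.13 to 0.35. Of the 5 probes 4 lay above 0, among them 1446303_at, which read 5.63, 9.13, 15.5 and 11.4 in SKI-606 and 2.38, 6.25, 6.25 and 3.63 in vehicle tumours, a log2 fold change of 0.35 ± 0.15. That probe stood at 0.46 without SKI-606 samples 1 and 4, where its groups did not overlap.

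Igf2r (chr17:12682406-12769706, minus strand), the receptor that clears IGF-2, was the member with a lower mean in SKI-606 tumours. Its brighter probe gave 174, 126, 185 and 159 in SKI-606 samples 1 to 4, against 206, 161, 226 and 182 in vehicle samples, and the groups overlapped. The mean was 161 ± 25.6 in SKI-606 and 194 ± 28.4 in vehicle tumours (SD, n = 4 each), a log2 fold change of -0.25 ± 0.16 (95% CI -0.61 to 0.12, adjusted p of 0.711 in limma). The direction turned to 0.027 with arrays scaled to the same median and to 0.030 on the log2 of the deposited ratios. The second probe, 1424112_at, stood at 0.16 ± 0.29, on the other side of 0, and no direction of Igf2r was settled by these arrays.

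Igfbp4 (chr11:99040005-99052655, plus strand), a binding protein that holds IGFs away from their receptor until the protease PAPP-A cleaves it, was higher in every SKI-606 sample than in any vehicle sample on its brightest probe. That probe, 1437405_a_at, gave 4008, 2369, 2393 and 4325 in SKI-606 samples 1 to 4, against 1817, 1603, 1582 and 1662 in vehicle samples 1 to 4. Vehicle samples lay close together, SKI-606 samples 2 and 3 lay above all of them, and SKI-606 samples 1 and 4 higher still. The mean was 3274 ± 1039 in SKI-606 and 1666 ± 106 in vehicle tumours (SD, n = 4 each), a log2 fold change of 0.91 ± 0.22 (95% CI 0.42 to 1.41), with an adjusted p of 0.517 in limma, a value that no probe tested went below. With SKI-606 samples 1 and 4 left out the log2 fold change was 0.53, and without vehicle sample 3 as well it was 0.50.

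All 6 probes of Igfbp4 were higher in SKI-606 tumours, by log2 fold changes of 0.91 to 1.74, and in 4 of them the groups did not overlap. Probe 1421992_a_at, with the widest difference, gave 2103, 374, 459 and 2359 in SKI-606 and 329, 251, 257 and 284 in vehicle tumours, a log2 fold change of 1.74 ± 0.56. Probe 1423756_s_at gave 4557, 1266, 1308 and 5208 in SKI-606 and 1147, 721, 920.1 and 856 in vehicle tumours, a log2 fold change of 1.46 ± 0.47. In both, SKI-606 samples 1 and 4 read well above the other 6, and SKI-606 samples 2 and 3 above the vehicle samples. The groups overlapped in 1423757_x_at and 1421991_a_at, where SKI-606 sample 2 lay within the vehicle range (726 against 579 to 887 in the first). In the second, SKI-606 samples 2 and 3 both did, at 53.6 and 67.3 against 24.9 to 81.6 in vehicle tumours. In Affymetrix naming, the suffixes s and x mark probe sets that can match transcripts of other genes, and the suffix a marks those that match several transcripts of 1 gene. The sixth probe, 1437406_x_at, stood at 1.03 ± 0.25. Over the 6 probes the values without SKI-606 samples 1 and 4 were between 0.16 and 0.59, so that the size, more than the direction, moved with those samples.

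Igfbp5 (chr1:72858065-72874865, minus strand), a matrix-bound binding protein, gave different answers on its 2 probes. Probe 1422313_a_at gave 1986, 1291, 1278 and 1171 in SKI-606 samples 1 to 4, against 656, 1073, 519 and 589 in vehicle samples. Every SKI-606 sample lay above every vehicle sample, and here SKI-606 samples 2 and 3 read as high as sample 4. The mean was 1431 ± 373 in SKI-606 and 709 ± 249 in vehicle tumours (SD, n = 4 each), a log2 fold change of 1.02 ± 0.25 (95% CI 0.46 to 1.58, adjusted p of 0.517 in limma), and without SKI-606 samples 1 and 4 it was 0.90.

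The brighter probe of Igfbp5, 1452114_s_at, lay near the top of the signal range, with only 36 of 45037 probes at a higher mean. It gave 10227, 10434, 10103 and 10227 in SKI-606 and 8906, 10692, 8389 and 9445 in vehicle tumours, a log2 fold change of 0.14 ± 0.13 (95% CI -0.15 to 0.42, adjusted p of 0.801 in limma). Its groups overlapped, and its order depended on the scaling. Before quantile normalization the recovered signals were 8401, 9529, 10458 and 7499 in SKI-606 and 7266, 9903, 11621 and 12636 in vehicle tumours, and without scaling between arrays its log2 fold change was -0.19, while that of 1422313_a_at was 1.02. Whether signals near the top of the range limit this probe was not tested.

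Igfbp7 (chr5:77349240-77408045, minus strand), a related secreted protein that binds IGFs weakly and is abundant in vessel walls and stroma, was the third member without overlap on a probe. Its brightest probe gave 6093, 2510.1, 2223 and 7293 in SKI-606 samples 1 to 4, against 2022, 1783, 2143 and 2138 in vehicle samples. SKI-606 samples 1 and 4 read well above the rest, whereas sample 3 exceeded the highest vehicle sample by little. Before quantile normalization SKI-606 sample 3, at 2287, lay below vehicle sample 4, at 2405, so that the groups overlapped there. The mean was 4529.7 ± 2548 in SKI-606 and 2022 ± 168 in vehicle tumours (SD, n = 4 each), a log2 fold change of 0.97 ± 0.37 (95% CI 0.15 to 1.79, adjusted p of 0.564 in limma), which was 0.23 without SKI-606 samples 1 and 4. Probe 1423585_at stood at 0.86 ± 0.34 with overlapping groups, and probe 1437804_at read at most 4.50 in any sample.

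Igfbp3 (chr11:7206086-7215498, minus strand), the main carrier of IGFs in the blood, was high in 2 SKI-606 samples only. Its brighter probe gave 1782, 221, 473 and 2353 in SKI-606 samples 1 to 4, against 240.4, 379.9, 749 and 284 in vehicle samples. SKI-606 sample 2 was the lowest of all 8, and vehicle sample 3 the highest of the vehicle samples. The mean was 1207 ± 1026 in SKI-606 and 413 ± 231 in vehicle tumours (SD, n = 4 each), a log2 fold change of 1.10 ± 0.69 (95% CI -0.45 to 2.65, adjusted p of 0.695 in limma). The direction turned without SKI-606 samples 1 and 4, to -0.20, and without vehicle sample 3 as well it was 0.12. The second probe, 1458268_s_at, gave the same picture, with 1007, 119.9, 240.3 and 1113 in SKI-606 and 158, 229, 276 and 158 in vehicle tumours and a log2 fold change of 1.05 ± 0.63.

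Igfbp2 (chr1:72824480-72852474, plus strand), a binding protein with a preference for IGF-2, had a single probe, with 1641, 178, 329 and 758 in SKI-606 samples 1 to 4, against 250.4, 241, 349.8 and 417 in vehicle samples. SKI-606 samples 1 and 4 were again the highest, and samples 2 and 3 lay below or within the vehicle range. The log2 fold change of 0.75 ± 0.57 (95% CI -0.52 to 2.02, adjusted p of 0.747 in limma) turned to -0.32 without those samples. Igfbp2 and Igfbp5 are neighbours on chromosome 1, tail to tail with 5590 bp between them, yet the orders of the samples differed between their probes.

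Igfbp6 (chr15:102144186-102149512, plus strand), which binds IGF-2 in preference to IGF-1, had 1 probe, with 544, 254, 218 and 603 in SKI-606 samples 1 to 4, against 322, 99.1, 119 and 396 in vehicle samples. Vehicle samples 1 and 4 lay above SKI-606 samples 2 and 3, so the groups overlapped widely. The mean was 405 ± 197 in SKI-606 and 234 ± 148 in vehicle tumours (SD, n = 4 each), a log2 fold change of 0.83 ± 0.48 (95% CI -0.24 to 1.91, adjusted p of 0.667 in limma), and 0.22 without SKI-606 samples 1 and 4.

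**Figure D2:**
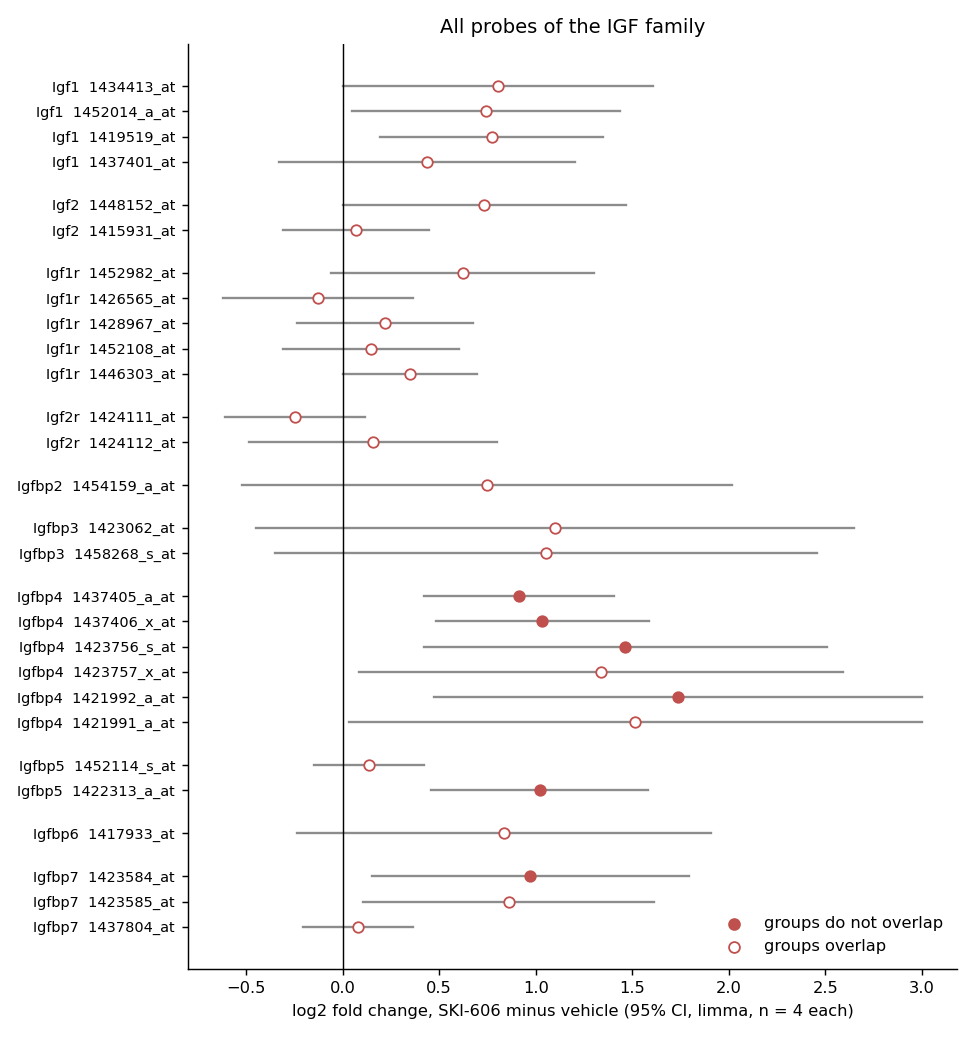
Log2 fold changes, SKI-606 minus vehicle, of all 28 probes of the family with 95% confidence intervals from limma (4 samples a group); filled points mark probes in which every SKI-606 value lay above every vehicle value. The filled points belong to Igfbp4, Igfbp5 and Igfbp7, and 26 of 28 points lie above 0.

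The stretches of 250 bases upstream of the RefSeq starts of Igfbp4, Igfbp5 and Igfbp7, the 3 members with a probe free of overlap, and of Igfbp3, the member whose brightest probe spread most between samples, are shown because these binding protein genes had higher means together in SKI-606 tumours. They are read 5′ to 3′ on the strand of the gene (GRCm38.p6), and capitals mark matches on either strand to 1 of 3 motifs, none of which overlap here. The letters TATAAA are those of a TATA box, which fixes the start of transcription in some genes. The letters GGAATG are bound by TEAD factors of the Hippo pathway, and TGANTCA by AP-1 factors. For Igfbp3 and Igfbp4 the annotated gene reaches further upstream than the start used here.
Igfbp4, chr11:99040994-99041243, plus strand: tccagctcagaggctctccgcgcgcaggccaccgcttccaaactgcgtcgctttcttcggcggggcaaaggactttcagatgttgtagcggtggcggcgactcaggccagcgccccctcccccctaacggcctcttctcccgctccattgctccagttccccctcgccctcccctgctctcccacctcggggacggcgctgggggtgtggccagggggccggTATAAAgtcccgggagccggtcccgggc
Igfbp5, chr1:72874866-72875115, minus strand: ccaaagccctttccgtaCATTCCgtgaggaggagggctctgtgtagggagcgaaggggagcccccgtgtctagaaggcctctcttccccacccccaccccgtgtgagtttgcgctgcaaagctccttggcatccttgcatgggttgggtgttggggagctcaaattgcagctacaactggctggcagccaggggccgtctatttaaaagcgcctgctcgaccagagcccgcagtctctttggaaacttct
Igfbp7, chr5:77408046-77408295, minus strand: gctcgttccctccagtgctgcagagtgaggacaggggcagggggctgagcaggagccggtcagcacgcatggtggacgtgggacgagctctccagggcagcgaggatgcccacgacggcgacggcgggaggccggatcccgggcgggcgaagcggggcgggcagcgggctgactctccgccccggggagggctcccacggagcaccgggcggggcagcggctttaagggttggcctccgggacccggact
Igfbp3, chr11:7213924-7214173, minus strand: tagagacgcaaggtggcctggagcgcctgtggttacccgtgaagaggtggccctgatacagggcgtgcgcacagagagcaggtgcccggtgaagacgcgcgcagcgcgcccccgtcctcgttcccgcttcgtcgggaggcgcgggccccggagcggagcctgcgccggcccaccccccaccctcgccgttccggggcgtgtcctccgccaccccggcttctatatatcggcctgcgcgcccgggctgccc

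RefSeq gave 14 such windows for the 10 members, all 10 of which matched by gene ID. The TATA box letters were found in 2 windows, 28 bases before the start of Igfbp4 and 148 bases before that of Igfbp6, where 12.4% of all 32851 windows of this length held them. The TEAD letters were in 4 windows, 3 of Igf2 and that of Igfbp5, beside 12.6% of all windows, and the AP-1 letters in 2 windows, of Igf1 and Igfbp2, beside 6.75%. The letters GGGCGG of the Sp1 box, not capitalized above, were in 6 windows, among them that of Igfbp7 with 4 matches, beside 32.7% of all windows. No one of these motifs was shared by the upstream windows of Igfbp3, Igfbp4, Igfbp5 and Igfbp7. Only the letters given were searched, so that near matches, such as other forms of a TATA box, were not counted.

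SKI-606 samples 1 and 4 held the 2 highest signals in 18 of the 28 probes and in 7 of the 10 members by their brightest probe, where they did so in 2072 of all 18193 genes. With both left out, the median log2 fold change of the 10 members was 0.18, and without vehicle sample 3 as well it was 0.13. In the first setting, 7 of 28 probes were free of overlap, beside 5.4% of all probes, and 6 had an unadjusted p under 0.05 on the higher side, beside 2.25%. In the second there were 8 and 5, beside 7.8% and 2.13%. On normalized signals, these probes free of overlap belonged to Igf1r, Igfbp4, Igfbp5 and Igfbp7 in both settings, fewer genes than probes. Among them, 1446303_at of Igf1r read at most 15.5 in any sample, near the floor. In 4 of the 6 probes of Igfbp4 and in 1422313_a_at of Igfbp5, SKI-606 samples 2 and 3 too lay above every vehicle sample, whereas for the brightest probes of Igfbp2 and Igfbp3 those samples lay within or below the vehicle range.

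**Figure D3:**
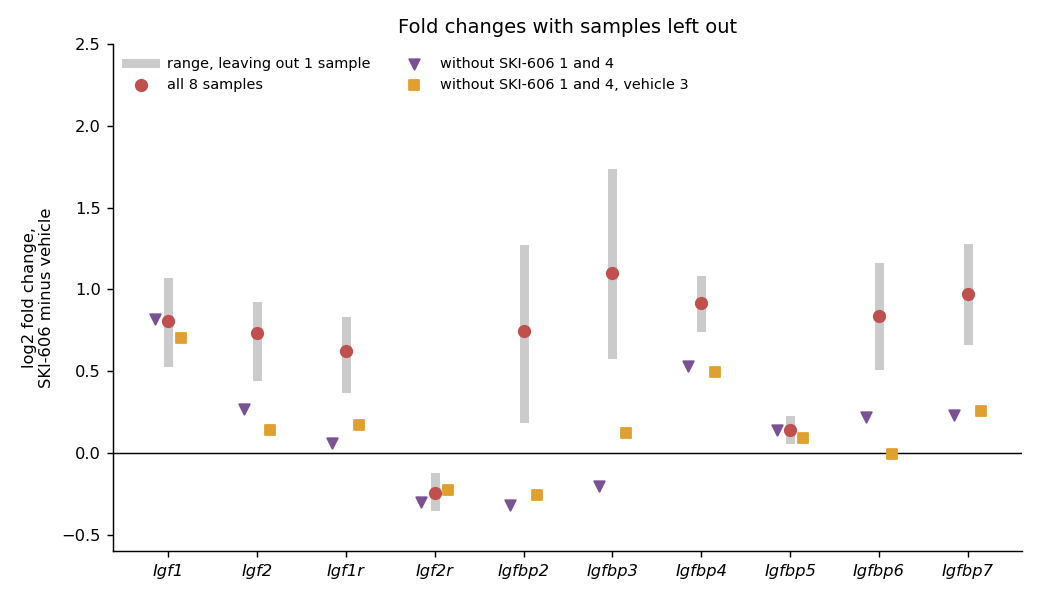
Log2 fold changes, SKI-606 minus vehicle, of the brightest probe of each member with all 8 samples (circles), without SKI-606 samples 1 and 4 (triangles), and without these and vehicle sample 3 (squares); grey bars span the values with 1 sample left out at a time. Without SKI-606 samples 1 and 4, Igf1 stands at 0.82 and Igfbp4 at 0.53, whereas Igfbp2 and Igfbp3 stand at -0.32 and -0.20.

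Markers of several other cell types also had higher values in SKI-606 tumours. All 10 fibroblast markers had log2 fold changes above 0, with a median of 0.80 and summed signals of 16874 to 30179 in SKI-606 and 12956 to 16186 in vehicle tumours, and none was at 0 in a sample. Their mean log2 value in SKI-606 samples 1 to 4 was 10.26, 10.12, 9.45 and 10.67, against 9.55, 9.17, 8.99 and 9.37 in vehicle samples, so that sample 3 was the lowest of the SKI-606 samples and within the vehicle range. The 8 basal and myoepithelial markers had sums of 2019.6 to 12225 in SKI-606 and 2272 to 5447 in vehicle tumours, 7 of 8 above 0, with SKI-606 samples 1 and 4 the highest. All 8 macrophage markers (5344 to 10947 in SKI-606 and 3359 to 5814 in vehicle tumours) and all 8 endothelial markers (915 to 1910.1 in SKI-606 and 607 to 1006 in vehicle tumours) lay above 0 too. In both the macrophage and the endothelial list SKI-606 samples 1 and 4 had the highest sums. None of the basal, macrophage or endothelial markers was at 0 in a sample. The part of all these cell types in the differences of the IGF genes was not tested.

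All 13 measured cell cycle genes lay below 0, with sums of 2056 to 5368 in SKI-606 and 5059 to 6396 in vehicle tumours. Of 11 measured squamous keratinization genes 8 lay above 0, with sums of 218 to 19201 in SKI-606 and 229 to 11231 in vehicle tumours, while Flg and Krtdap were at 0 in at least 1 sample. Vehicle sample 3, at 11231, read far above the other vehicle samples in squamous genes. It had the lowest signal of all 8 samples for 1437405_a_at of Igfbp4 and 1422313_a_at of Igfbp5, and the highest of the vehicle samples for both probes of Igfbp3 and the brightest probes of Igf1r, Igf2r and Igfbp7. Of the other tissues, adipocyte markers (5 of 6 above 0) summed to 603 to 9731 in SKI-606 and 610.3 to 5163 in vehicle tumours and skeletal muscle markers (8 of 8) to 105 to 13882 in SKI-606 and 96.8 to 19798 in vehicle tumours, with no marker at 0. SKI-606 sample 2, the highest of the 8 on probe 1434413_at of Igf1 but on none of the other 3 probes of that gene, had the highest adipocyte sum. T and NK cell markers (8 of 8 above 0) summed to 215 to 259.9 in SKI-606 and 62.0 to 166 in vehicle tumours. Of these, Cd3d, Cd5 and Cd2 had mean signals under 16, near the floor, as had the adipocyte marker Lep and the squamous gene Ivl. The 6 milk protein genes (4 of 6 above 0) summed to 31554 to 47502 in SKI-606 and 20052 to 43117 in vehicle tumours. No gene of either list was at 0 in a sample.

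**Figure D4:**
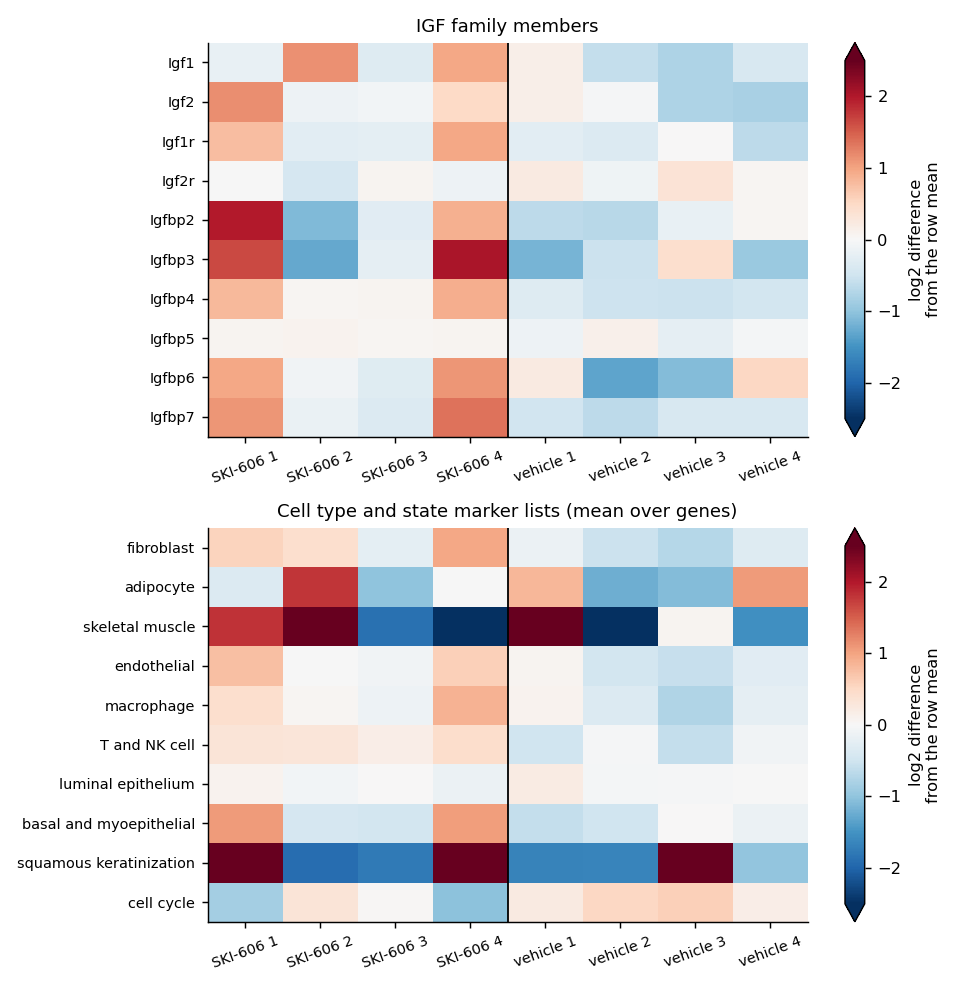
Log2 difference of each IGF family member (top, brightest probe) and of the mean of each marker list (bottom) from its mean over the 8 samples, with SKI-606 samples left of the line and vehicle samples right of it. SKI-606 samples 1 and 4 are high for most members and for the fibroblast, endothelial, macrophage, basal and squamous lists. For the fibroblast list SKI-606 sample 2 is close to sample 1. Vehicle sample 3 is high for the squamous list and not for Igfbp4 or Igfbp7.

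The pattern over the 8 samples was compared with those of all other genes with a mean signal of at least 100, by the root mean square difference of log2 values after taking off each gene's mean, a measure of likeness on the log2 scale with no test. The 7262 genes so compared share arrays and scaling. For Igfbp4 the nearest were Tmem119 (0.074), Pianp (0.10) and Bgn (0.12), and for Igfbp7 Fxyd5 (0.12), Col5a1 (0.14) and Fndc1 (0.14). Tmem119 read 472, 242, 269.5 and 433 in SKI-606 samples 1 to 4 and 197, 166, 167 and 186 in vehicle samples, with SKI-606 samples 1 and 4 on top and samples 2 and 3 next, as for Igfbp4. Bgn encodes the matrix proteoglycan biglycan and Col5a1 a chain of type V collagen. For Igf1 the nearest were Mrc1 (0.19), Ptprc (0.25) and Srgn (0.27). Mrc1 encodes the macrophage mannose receptor and Ptprc the leukocyte antigen CD45. The nearest to Igfbp3 were Moxd1 (0.28), Pkp1 (0.32) and Id1 (0.33), of which Pkp1 encodes a protein of desmosomes. For Igfbp2 they were Myl9 (0.35), Dusp14 (0.37) and Dbn1 (0.39), for Igfbp6 Fcgrt (0.22), Bmp1 (0.24) and Clec10a (0.25), for Igf2 Ralgds (0.23), Tmem43 (0.24) and Pacs2 (0.24) and for Igf1r Degs1 (0.14), Ext1 (0.16) and Cemip2 (0.16). The brightest probes of Igf2r and Igfbp5 varied by less than an SD of 0.5 and were not compared in this way, nor was 1422313_a_at of Igfbp5, with an SD of 0.66, because only brightest probes were compared.

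Within the family, by the same measure, Igfbp4 and Igf1r were nearest to each other (0.26), followed by Igfbp7 and Igfbp4 (0.27). Igf1 and Igfbp3 were farthest apart (1.31). On these brightest probes SKI-606 sample 2 was the highest for Igf1 and the lowest for Igfbp3, whereas on the other 3 probes of Igf1 SKI-606 samples 1 and 4 were the 2 highest. The nearest member to Igfbp3 was Igfbp2, at 0.62.

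Other genes of the pathway were read by their brightest probe, and 0 passed over all probes in any of the 3 lists. Of 9 measured regulators of the ligands, 6 had positive and 3 negative values, around a median of 0.12, and 2 further listed genes were not analysed here. Igfbp1, Pappa, Pappa2 and Igf2bp1 had mean signals under 16, where the added 16 brings values closer to 0, and Igfbp1 was at 0 in at least 1 sample. Their signs, and the median with them, are limited by the floor. At an unadjusted p under 0.05 there were 0 higher, beside 6.07% of all genes, and 1 lower, beside 4.31%. That gene was Igf2bp3, an RNA-binding protein of Igf2 and other transcripts, at -0.74 ± 0.31, with 25.5, 55.8, 77.4 and 55.9 in SKI-606 samples 1 to 4 and 66.1, 95.1, 73.3 and 173 in vehicle samples. Its adjusted p in limma was 0.584, and its value was -0.17 with the mean of all its probes, -0.49 without vehicle sample 4, the highest, and -0.45 without SKI-606 samples 1 and 4. Igf2bp1, of the same family, stood at -0.22 ± 0.16 and was dim. Pappa, whose product PAPP-A cleaves Igfbp4, read 5.63, 12.4, 3.0 and 17.5 in SKI-606 samples 1 to 4 and 5.63, 8.13, 1.13 and 11.4 in vehicle samples, low in all 8. Stc2, an inhibitor of that protease, stood at 0.27 ± 0.26, and Ghr, the growth hormone receptor that drives Igf1 in liver, at 0.12 ± 0.37.

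Downstream of the receptor, 20 signalling genes were measured, of which 9 had positive and 11 negative values; their median was -0.048, and 5 further listed genes were not analysed here. At an unadjusted p under 0.05, 1 of the 20 was higher, beside 6.07% of all genes, and 1 was lower, beside 4.31%, shares near the background. Grb2, an adaptor between receptor kinases and Ras, stood at 0.57 ± 0.17, with 586, 619.6, 424 and 507 in SKI-606 samples 1 to 4 and 389, 343, 285 and 397 in vehicle samples, and its groups did not overlap. Pik3cb, a catalytic subunit of PI3 kinase, stood at -0.43 ± 0.16, with 45.1, 69.5, 45.5 and 61.4 in SKI-606 samples 1 to 4 and 74.6, 87.8, 84.9 and 71.1 in vehicle samples. Its groups did not overlap either, with every SKI-606 value below every vehicle value. Of all genes, 2.39% had every SKI-606 value above every vehicle value, and 2.03% had every one below. In limma the adjusted p was 0.554 for Grb2 and 0.564 for Pik3cb, and with arrays scaled to the same median Pik3cb stood at -0.19. The adaptor gene Irs1 was at 0.58 ± 0.32, Insr, the insulin receptor, at -0.081 ± 0.26, and the kinase gene Mtor at -0.26 ± 0.14. Irs2 was at -0.15 ± 0.20 from signals of at most 15.5. The directions of Insr and Mtor turned under both other scalings named for Igf2r.

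Genes that share the IGFBP domain with the binding proteins had higher means, with 9 of 12 above 0 and a median of 0.60. Igfbpl1, Esm1, Crim1 and Htra4 of this list had mean signals under 16, near the floor. At an unadjusted p under 0.05 there were 4 of 12 higher, beside 6.07% of all genes, and 0 lower, beside 4.31%. Ccn5, a secreted matricellular protein, read 658, 394, 243 and 583 in SKI-606 samples 1 to 4 and 176, 102, 92.3 and 313 in vehicle samples, a log2 fold change of 1.43 ± 0.40. Its relative Ccn4 read 100.1, 69.5, 40.4 and 142 in SKI-606 samples 1 to 4 and 24.6, 35.8, 28.6 and 17.5 in vehicle samples, a log2 fold change of 1.20 ± 0.30, and its groups did not overlap. The secreted protease genes Htra1 and Htra3 stood at 1.16 ± 0.38 and 1.08 ± 0.35. In limma the adjusted p of these 4 was between 0.517 and 0.559. As for the binding proteins, SKI-606 samples 1 and 4 held the highest summed signals of this list (2578 to 7938 in SKI-606 and 2446 to 2769.6 in vehicle tumours). Its brightest genes, Ccn2 and Ccn1, weigh most in these sums. Ccn2 read 3646, 932, 917 and 3965 in SKI-606 samples 1 to 4 and 1226, 919, 1406 and 973 in vehicle samples. Ccn1 read 1911.5, 399.5, 897 and 1526 in SKI-606 and 666, 1004, 821.5 and 620 in vehicle samples. The mean log2 value of the list was highest in SKI-606 samples 1 and 4 too, at 7.43 and 7.59. Without SKI-606 samples 1 and 4 the median log2 fold change was -0.12, with Ccn5 at 0.95, Ccn4 at 0.70 and Htra3 at 0.78.

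**Figure D5:**
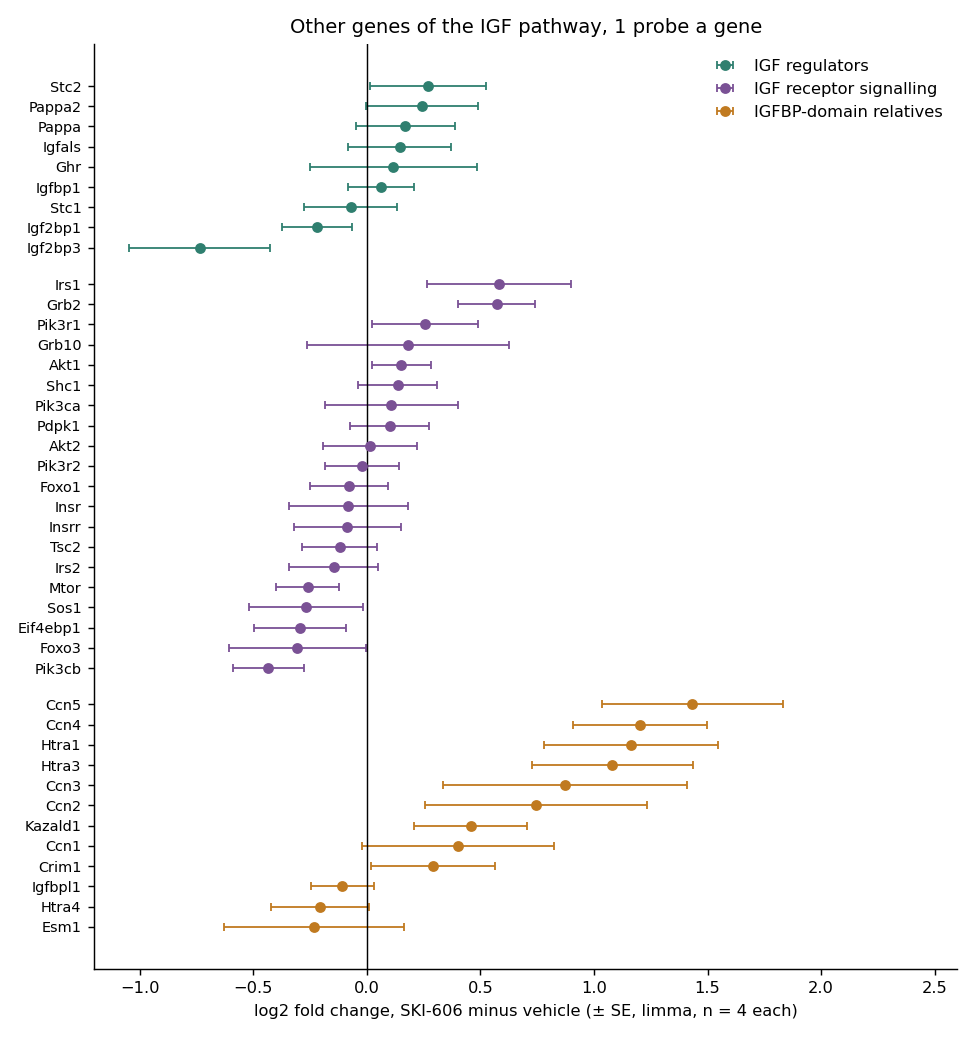
Points give the log2 fold change of SKI-606 over vehicle, with bars for ± SE, for the other measured genes of the pathway (brightest probe, 4 samples a group), by list and ordered by value. Signalling genes lie on both sides of 0, and 9 of 12 relatives with an IGFBP domain lie above it.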

How the data were processed

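The deposited values are linear ratios, 1 for each probe and array; the sources used here do not state the software and normalization behind them. From the values, the authors' ratios are each signal over the median of its array and then over the median of its probe, with a constant divisor for dim probes and a lowest value of 0.01. For each probe, the smallest set of whole-number signals fitting its 8 ratios was taken (tolerance 0.002, 3e-07 of the signal, or 0.01 with the constant divisor). They gave back all 45101 probes within a relative 0.0001, but the signals had been chosen to fit these ratios. In a self-test 99.8% of 5000 probes were exact, and 99.5% of those simulated with a probe median as divisor. The rest of the 5000 were recovered signals put back through the constant divisor, a part of the test that could hardly fail.

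After leaving out 64 control probes, signals were quantile normalized, 16 was added and log2 was taken. The test was limma 3.58.1 (R 4.3.3; 4 SKI-606 against 4 vehicle samples), checked on simulated data, with figures and tables made in Python 3.11.15. Names are those of the platform's annotation, where 34945 probes had 1 symbol, 932 several and 9160 none. The brightest probe, that with the highest mean of log2(signal + 16), stood for each gene.

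RNA was prepared per mouse according to the labels, which tie no sample to an animal, so p-values measure the spread between samples, and their number limits the precision. The sources used here give no detection calls, scan dates or batches. Replicate numbers are shared between the groups, but same-numbered samples did not deviate together (correlations of -0.15 to 0.108), so no pairing was used. The members, lists, motifs and samples left out were chosen with earlier results of these data known. Named genes were all members, the 3 genes of smallest unadjusted p in each pathway list with Insr, Irs1, Irs2, Ghr and Pappa, and the 3 nearest patterns of members with an SD of at least 0.5; pathway genes with no such probe were not analysed here.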

Additional observations from a re-analysis of the deposited data

Results flagged for a closer look

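In SKI-606 sample 2 the dim probe 1415931_at of Igf2 read 10.1, far from the other SKI-606 samples at 1.13 to 1.25, with a gap of 0.983 of the group's range, which is above Dixon's 95% critical value for 4 samples. It was 1 of 56 groups examined, and chance flags about 1 in 20. All these signals lie near the floor, and the brighter probe of Igf2 read 25.9 in the same sample, the lowest of the SKI-606 samples.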

How the results depend on the processing

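In limma 0 probes were called in each of the 20 alternatives, and over these the lowest adjusted p of a member probe or named pathway gene was 0.243. Of the 10 members, 5 kept their direction on the brightest probe in every alternative run for it. The count of 14 member probes at an unadjusted p under 0.05 was 9 with a pseudocount of 1 or 64, 5 without SKI-606 samples 1 and 4 and vehicle sample 3, 6 without SKI-606 samples 1 and 4 (a setting added after the data were seen), and 6 to 16 with 1 sample left out. The median of the 10 members was 0.13 and 0.18 without those 3 or 2 samples, and 0.56 to 1.0 with 1 left out. With the replicate number as a block, 0 probes were called and the count was 13; same-numbered samples share only a number, and the block changed no call. The median of the regulators was 0.30 on log2 ratios as deposited, where the median of all probes was 0.096 in place of -0.021, and that of the signalling genes 0.23 there and 0.21 with arrays scaled to the same median; the cause was not tested. That of the IGFBP-domain relatives was 1.08 over probes with a mean signal of at least 50, where fewer genes were tested, and -0.058 and -0.12 without the 3 or 2 samples. With 1 sample left out the 3 lists had medians of -0.0048 to 0.13, -0.11 to 0.031 and 0.41 to 0.90.

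Directions turned for the following log2 fold changes. Without scaling, 1452114_s_at of Igfbp5 was at -0.19. With arrays scaled to the same median, 1424111_at of Igf2r was at 0.027, Mtor at 0.0027 and Insr at 0.16, and on log2 ratios as deposited they were at 0.030, 0.0029 and 0.17, with 1415931_at of Igf2 at -0.11. With the mean of all probes of a gene, Stc2 was at -0.010 and Insr at 0.13. Without SKI-606 samples 1 and 4 and vehicle sample 3, 1428967_at of Igf1r was at -0.041, 1424112_at of Igf2r at -0.15, Igfbp2 at -0.26, 1458268_s_at of Igfbp3 at -0.064, Igfbp6 at -0.0055, 1437804_at of Igfbp7 at -0.0092, Insr at 0.21 and Pappa at -0.062. Without SKI-606 samples 1 and 4 alone, 1437401_at of Igf1 was at -0.10, 1428967_at of Igf1r at -0.060, 1424112_at of Igf2r at -0.12, Igfbp2 at -0.32, the probes of Igfbp3 at -0.20 and -0.21, 1437804_at of Igfbp7 at -0.0030 and Insr at 0.22. With 1 sample left out the range crossed 0 for Ghr (-0.082 to 0.42), Irs2 (-0.22 to 0.032), Insr (-0.35 to 0.095), 1424112_at of Igf2r (-0.069 to 0.32), 1415931_at of Igf2 (-0.087 to 0.12) and 1426565_at of Igf1r (-0.28 to 0.035). Probes with signals near 16 or below are limited by the floor, and the cause of these turns was not tested.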
